A study of Homo sapiens with 3 samples.

Results

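The 10 genes described here cover fatty acid synthesis, lipid droplet coats and APOE. They are SREBF1, ACLY, ACACA, FASN, SCD, FADS1, FADS2, PLIN2, PLIN3 and APOE. They were found by symbol among the 13479 genes of the deposited table, and all 10 were listed. They had been selected on their CPM values in all 3 libraries, in the sense that they were proposed with earlier results of these data in view. Their levels and ratios are therefore a description and carry no test. The values come from cap analysis of gene expression (CAGE), which counts tags from the capped 5′ ends of transcripts, in the established lung squamous carcinoma cell line EBC-1. Cells were electroporated with 600 pmol of siRNA, with a time of 72 h after plating given for every group. The groups were RAB11A siRNA 1, RAB11A siRNA 2 and a negative control siRNA, with 1 library each. RAB11A encodes a small GTPase of the recycling endosome. All values come from 1 cell line and a transient knockdown, and no difference below has a replicate check.

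Cells build fatty acids from citrate: ATP citrate lyase releases acetyl-CoA, acetyl-CoA carboxylase makes malonyl-CoA, and fatty acid synthase assembles palmitate, which desaturases then modify. SREBF1 encodes the membrane-bound transcription factor SREBP-1, which is released by proteolysis and activates many of these enzyme genes. Surplus fatty acids are stored as triglyceride in lipid droplets coated by perilipins, and APOE is a secreted lipid carrier that receptors of the LDL receptor family take up.

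The deposited values were spaced by 0.04 CPM per tag, CPM being tags relative to the library total. A search near that spacing, with 1 total shared by all libraries, gave 24999950 tags. The search moved in steps wider than 1 tag and kept the first total with the best score, so its last digits are not resolved. The equal totals were set by that search and were not measured for each library. A level of 5 CPM equals 125 tags. The 10788 genes averaging 5 CPM or more, which include all 10 genes described here, were compared as log2 ratios of (CPM + 1). Intervals and standard errors are Poisson and cover counting error only. The siRNA target RAB11A stood at 7.48 CPM with siRNA 1, 22.7 with siRNA 2 and 135 with control siRNA, so 5.53% and 16.8% of the control level remained. Of 8 epithelial markers, 6 were listed, and their summed level was 1067, 926 and 889 CPM in the same order, mostly KRT18 and KRT8. CDH1 and CLDN4 gave no value, and EPCAM and CLDN7 averaged only 4.07 and 2.35 CPM, under the minimum of 5 CPM. Of 11 squamous markers only PERP, SFN and S100A2 were listed, so TP63, SOX2 and KRT5, which define the labelled lineage, gave no value. In bulk libraries fewer cells with a transcript and less transcript per cell cannot be told apart.

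The siRNA guide strands carry the seeds that could act on other transcripts, and are shown because both libraries depend on them. Each was derived as the reverse complement of the labelled sequence read as a sense strand, and guide positions 2 to 8, counted from the 5′ end, are in capitals.
siRNA 1 guide: uUUCCAUCaaccuggaugc
siRNA 2 guide: uUCUGCAAaagcucuugcu
The site for the siRNA 1 seed, GATGGAA, occurred in 1404 of 9600 canonical 3′ UTRs (14.6%), and that for siRNA 2, TTGCAGA, in 1545 (16.1%). Among the 10 genes SCD alone held a siRNA 1 site and ACLY alone held a siRNA 2 site, 1 each. A match is a description of letters and not of an effect.

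In the control library SCD was the most abundant of the 10, at 315 CPM, and ACACA the least, at 20.8. PLIN2 ranked 2nd, at 144 CPM, with PLIN3 at 134. SREBF1, FADS2, FASN and FADS1 followed at 130, 129, 127 and 126 CPM, and the intervals of neighbours from PLIN3 to FADS1 overlapped. ACLY stood at 77.8 CPM and APOE at 55.1. The order was another in the siRNA libraries, where FADS2 ranked 2nd and PLIN2 ranked 8th. CAGE gives 1 tag per capped end, so transcript length does not enter these levels. Summed over the 10 genes, the libraries held 1103 CPM with siRNA 1, 1263 with siRNA 2 and 1258 with control siRNA.

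**Figure D1:**
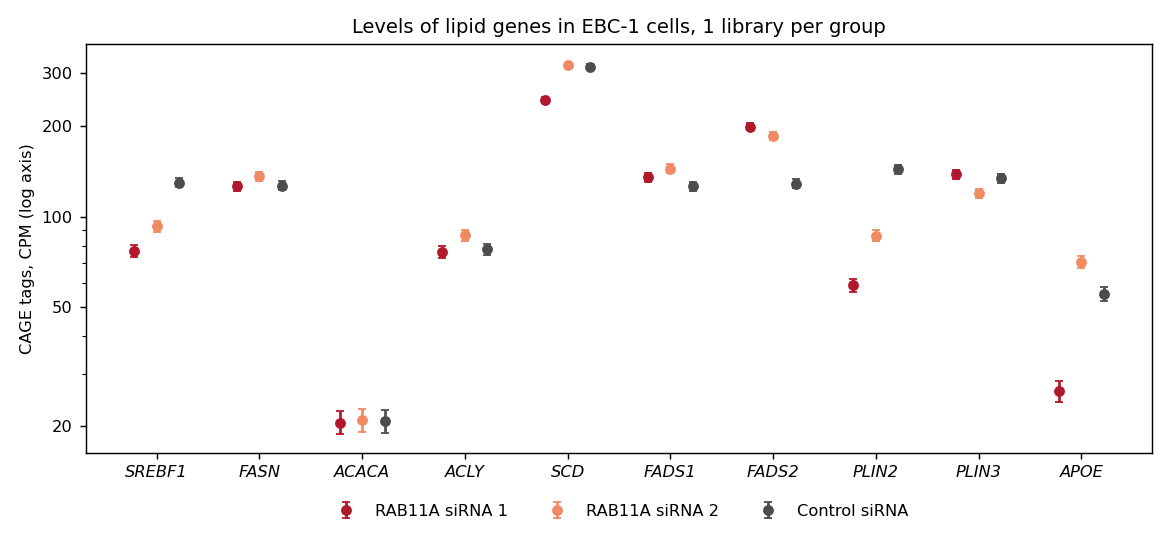
Level of each gene in CPM on a log axis for the libraries with siRNA 1, siRNA 2 and control siRNA, 1 library each, with 95% Poisson intervals that cover counting error only. PLIN2 lies at 59.0 CPM with siRNA 1, 86.3 with siRNA 2 and 144 with control siRNA, while ACACA lies between 20.6 and 21.0 CPM in all 3.

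SREBF1 (ENSG00000072310, chr17:17713713-17740316, minus strand, GRCh37), the regulator of the group, stood at 76.9 CPM with siRNA 1, 92.96 with siRNA 2 and 130 with control siRNA. Both siRNA libraries lay below control and their intervals did not overlap it, at 73.5 to 80.4 and 89.2 to 96.8 CPM, against 125 to 134. The log2 ratio to control was -0.75 with siRNA 1 (counting standard error 0.041) and -0.475 with siRNA 2 (0.039), and 1.20% and 3.73% of the 10788 genes lay lower. The ratio of siRNA 1 to siRNA 2 was -0.27 (0.044). SREBF1 has 24 distinct annotated transcript starts, and the table holds 1 sum over them, so the SREBP-1a and SREBP-1c forms, known to arise from different starts, were not separated. MIR33B, which lies inside SREBF1 on the same strand, gave no value of its own. The promoter is shown because SREBF1, PLIN2 and APOE are the genes whose levels lay furthest below control in a siRNA library.

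RefSeq promoters of SREBF1, PLIN2 and APOE, each of 300 bases and ending 50 bases after the start site, came from the GRCh38.p14 table and were placed on GRCh37 by exact match. Capitals mark exact matches on either strand to the GC box GGGCGG, the E-box CACGTG, the CCAAT box CCAAT or the TATA box TATAAA. The letters also searched were TCACNCCAC, a sterol response element, and AGGTCA, a core motif of nuclear receptors. No match in these 3 promoters overlapped another.
SREBF1, chr17:17740251-17740550, minus strand: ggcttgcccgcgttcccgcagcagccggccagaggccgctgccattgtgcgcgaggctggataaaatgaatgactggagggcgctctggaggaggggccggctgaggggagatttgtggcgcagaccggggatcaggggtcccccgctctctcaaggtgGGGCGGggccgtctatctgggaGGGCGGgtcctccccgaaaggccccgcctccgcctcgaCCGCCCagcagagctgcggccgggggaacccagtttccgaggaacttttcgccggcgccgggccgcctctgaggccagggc
PLIN2, chr9:19127441-19127740, minus strand: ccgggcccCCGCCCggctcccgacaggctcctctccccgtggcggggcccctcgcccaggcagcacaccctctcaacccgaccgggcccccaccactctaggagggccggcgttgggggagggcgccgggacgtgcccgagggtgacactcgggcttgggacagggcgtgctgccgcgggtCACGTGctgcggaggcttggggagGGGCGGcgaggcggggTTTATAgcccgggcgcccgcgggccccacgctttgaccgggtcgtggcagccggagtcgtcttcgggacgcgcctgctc
APOE, chr19:45408803-45409102, plus strand: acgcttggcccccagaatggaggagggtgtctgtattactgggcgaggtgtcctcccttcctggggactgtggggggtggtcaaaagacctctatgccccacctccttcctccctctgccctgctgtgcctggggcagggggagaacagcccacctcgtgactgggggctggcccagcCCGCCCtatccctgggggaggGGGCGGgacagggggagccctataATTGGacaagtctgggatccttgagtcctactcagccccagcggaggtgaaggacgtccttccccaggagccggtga
The SREBF1 window was 71.0% GC and held 3 GC boxes and no other searched letters. The PLIN2 window, 76.7% GC, held an E-box at position -69 relative to the start site, GC boxes at -45 and -242 and a TATA box read on the opposite strand at -29. The APOE window, 65.0% GC, held GC boxes at -51 and -72 and an opposite-strand CCAAT box at -27. Of the 9 genes with a promoter in the table, 9 held a GC box, 6 a CCAAT box, 1 the E-box (PLIN2), 1 the TATA box (PLIN2) and 0 the sterol element or the nuclear receptor core. Those motifs occurred in 45.0%, 34.6%, 7.26%, 11.5%, 1.13% and 13.8% of 35116 promoters of the same length. FASN was the gene without a promoter there. For ACACA and FADS2 the table's window lies 50888 and 11896 bases from the canonical start. Their matches therefore describe another start of the gene. The SREBF1 window lies at its canonical start, and starts outside that window were not searched. Letters not found are a description of these windows only.

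Among the synthesis enzymes, none of ACLY, ACACA and FASN lay 1.5-fold from control in either siRNA library. ACLY (chr17:40023170-40086795, minus strand), which releases acetyl-CoA from citrate, stood at 76.1 CPM with siRNA 1, 86.6 with siRNA 2 and 77.8 with control siRNA. Its log2 ratio to control was -0.03 (95% counting interval -0.12 to 0.06) with siRNA 1 and 0.15 (0.07 to 0.24) with siRNA 2. ACACA (chr17:35441927-35766927, minus strand), the carboxylase of the committed step, stood at 20.6, 21.0 and 20.8 CPM in the same order. A difference in ACACA was not detectable at this depth, with ratios to control of -0.01 (-0.18 to 0.16) and 0.01 (-0.15 to 0.18). FASN (chr17:80036214-80056170, minus strand), the palmitate synthase, stood at 126, 136 and 127 CPM, and its ratio to control was -0.01 (-0.08 to 0.06) with siRNA 1 and 0.10 (0.03 to 0.17) with siRNA 2. In these same libraries SREBF1 stood at 59.4% of control with siRNA 1 and 71.7% with siRNA 2.

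The desaturases differed among themselves. SCD (chr10:102106990-102124583, plus strand), which makes monounsaturated fatty acids, stood at 245 CPM with siRNA 1, 319 with siRNA 2 and 315 with control siRNA. The siRNA 1 library was low and the other 2 had overlapping intervals, at 312 to 326 and 308 to 322 CPM. The log2 ratio to control was -0.36 (-0.41 to -0.31) with siRNA 1, with 9.26% of all genes lower, and 0.02 (-0.02 to 0.07) with siRNA 2. SCD carries the siRNA 1 seed site named above, and its part in the lower level was not tested. ACLY, which carries the siRNA 2 site, had a log2 ratio to control of 0.15 with siRNA 2. The part of that site was not tested either. Within each library SCD stood at 1.94 tags per FASN tag with siRNA 1 (exact 95% interval 1.86 to 2.03), 2.34 with siRNA 2 (2.25 to 2.44) and 2.48 with control siRNA (2.38 to 2.59).

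FADS1 and FADS2 encode the delta-5 and delta-6 desaturases of polyunsaturated fatty acid synthesis, and lie on opposite strands of chromosome 11 with canonical starts 11.3 kb apart. FADS2 (chr11:61560452-61634826, plus strand) stood at 199 CPM with siRNA 1, 186 with siRNA 2 and 129 with control siRNA. Both siRNA libraries lay above control with no overlap of intervals, and only 2.26% and 1.72% of all genes had a higher ratio. The log2 ratio to control was 0.63 with siRNA 1 (0.56 to 0.69) and 0.52 with siRNA 2 (0.46 to 0.59). FADS1 (chr11:61567099-61596790, minus strand) stood at 135, 145 and 126 CPM, with ratios of 0.10 (0.03 to 0.17) and 0.19 (0.13 to 0.26). FADS2 tags per FADS1 tag were 1.47 with siRNA 1 (1.41 to 1.54), 1.28 with siRNA 2 (1.23 to 1.34) and 1.02 with control siRNA (0.97 to 1.07). The annotated span of FADS2 overlaps FEN1, a flap endonuclease gene of DNA replication on the same strand, at 79.3, 69.6 and 55.0 CPM. After all FEN1 tags were taken away from FADS2, a setting chosen after seeing the data, the FADS2 ratios to control were 0.69 and 0.64. That setting assumes that every FEN1 tag was also counted for FADS2, which the sources do not state. FADS3, the neighbouring family member, named after its values were seen, stood at 230, 229 and 213 CPM.

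**Figure D2:**
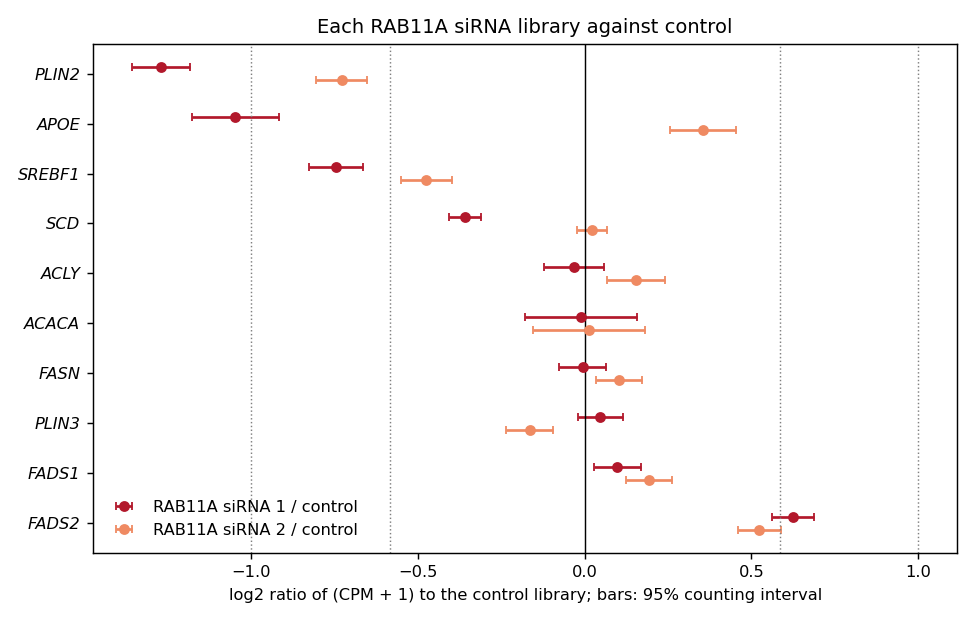
Log2 ratio of (CPM + 1) of each gene to the control library, for siRNA 1 and siRNA 2, with 95% counting intervals and dotted lines at 1.5-fold and 2-fold. PLIN2 and SREBF1 lie below 0 and FADS2 above 0 with both siRNAs, while APOE lies at -1.05 with siRNA 1 and 0.35 with siRNA 2.

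Of the droplet coat proteins, PLIN2 lay below control in both siRNA libraries and PLIN3 lay close to it. PLIN2 (chr9:19108373-19149288, minus strand), the perilipin that coats droplets in most non-adipose cells, stood at 59.0 CPM with siRNA 1, 86.3 with siRNA 2 and 144 with control siRNA. No 2 of these intervals overlapped, at 56.0 to 62.1, 82.7 to 90.04 and 139 to 148 CPM, and the siRNA 1 library was the lowest. PLIN2 stood at 41.0% and 60.1% of control, with log2 ratios of -1.27 (counting standard error 0.044) and -0.73 (0.039). Only 0.232% and 0.779% of all genes had a lower ratio. The ratio of siRNA 1 to siRNA 2 was -0.54 (0.048).

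PLIN3 (chr19:4838353-4867706, minus strand), a perilipin that moves between cytosol and droplets, stood at 139 CPM with siRNA 1, 119 with siRNA 2 and 134 with control siRNA. Its siRNA 2 library was the lowest, with ratios to control of 0.05 (-0.02 to 0.12) and -0.16 (-0.24 to -0.09). PLIN2 tags per PLIN3 tag were 0.426 with siRNA 1 (0.400 to 0.452), 0.722 with siRNA 2 (0.683 to 0.764) and 1.07 with control siRNA (1.02 to 1.12). The family member PLIN4, named after its values were seen, was low, at 1.48, 3.12 and 6.80 CPM, under the minimum mean.

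APOE (ENSG00000130203, chr19:45409048-45412650, plus strand) stood at 26.2 CPM with siRNA 1, 70.8 with siRNA 2 and 55.1 with control siRNA. The siRNA 1 library was the lowest and the siRNA 2 library the highest, and no intervals overlapped, at 24.2 to 28.2, 67.5 to 74.1 and 52.2 to 58.1 CPM. With siRNA 1, APOE was at 47.5% of control (log2 ratio -1.05, counting standard error 0.066), and 0.417% of all genes lay lower. With siRNA 2 it was 1.28-fold control (0.35, 0.051), and 4.94% lay higher. Between the siRNA libraries APOE had a log2 ratio of -1.40 (0.064), and 0.13% of all genes lay lower. The neighbour APOC1, another apolipoprotein, 8.81 kb away, stood at 15.1, 19.6 and 12.6 CPM. APOE tags per APOC1 tag were 1.73 with siRNA 1 (1.53 to 1.97), 3.60 with siRNA 2 (3.26 to 3.99) and 4.37 with control siRNA (3.87 to 4.96). TOMM40, an outer mitochondrial membrane import gene 14.5 kb from APOE, stood at 133, 123 and 123 CPM.

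Markers of other cells that use APOE or droplets were looked up beside these values. Of 10 hepatocyte markers 0 were listed. Of 9 macrophage markers only CD68, a lysosomal glycoprotein, was listed, at 21.1, 31.4 and 45.2 CPM, and PTPRC, CD14 and CSF1R, which define that type, gave no value. Of 8 adipocyte markers 4 were listed, with a summed level of 106, 121 and 142 CPM, most of it PPARG, which stood at 97.6, 112 and 126. Their part in the APOE and PLIN2 levels was not tested.

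Counted by size, with siRNA 1 FADS2 was at least 1.5-fold higher than control, against 2.81% of the genes compared, and SREBF1, APOE and PLIN2 at least 1.5-fold lower, against 2.56%. APOE and PLIN2 were at least 2-fold from control, against 0.89%. With siRNA 2 none of the 10 was 1.5-fold higher, against 1.24%, and PLIN2 was 1.5-fold lower, against 1.85%. FADS2 lay just under that size, at 1.44-fold. It lay past it, at a log2 ratio of 0.64, only if all FEN1 tags are assumed to be counted for FADS2 and are taken away. With siRNA 2, 0 of the 10 reached 2-fold, against 0.463%. Between siRNA 1 and siRNA 2 none was 1.5-fold higher, against 0.899%, and APOE alone was lower, against 0.695%, and 2-fold apart, against 0.352%. Because the genes were chosen with these values known, nothing is read from the counts.

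An exact two-sided binomial test on recovered tags, adjusted by Benjamini-Hochberg over all 10788 genes, compares these libraries and not the conditions. With siRNA 1, at an adjusted p of 0.05, it called 2 of the 10 higher than control, against 23.3% of genes, and 4 lower, against 29.1%. With siRNA 2 it called 5 higher, against 18.4%, and 3 lower, against 29.9%. Between siRNA 1 and siRNA 2 it called 2 higher, against 21.4%, and 7 lower, against 15.4%. Nothing is read from these counts either. The median log2 ratio of the 10 was -0.02 with siRNA 1 and 0.06 with siRNA 2, against -0.03 and -0.04 over all genes. Both comparisons share the control library. Under TMM scaling the medians of the 10 were 0.0027 and 0.11, so medians this near 0 here and in the lists below carry no direction. Between siRNA 1 and siRNA 2 the median of the 10 was -0.15, against 0.02 over all genes.

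**Figure D3:**
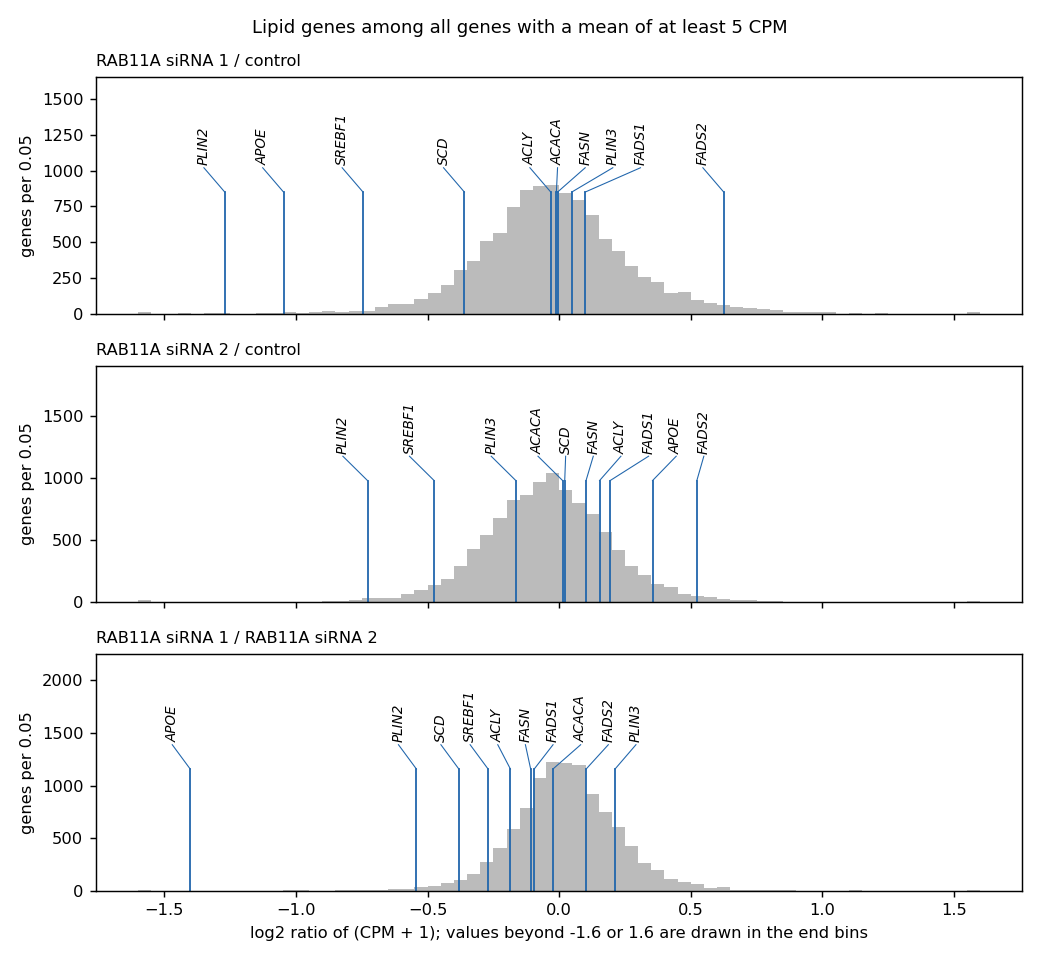
Histograms of the log2 ratio of (CPM + 1) over the 10788 compared genes (number of genes per bin of 0.05), for siRNA 1 against control, siRNA 2 against control and siRNA 1 against siRNA 2, with the 10 described genes as blue lines; values beyond the axis are drawn in the end bins. PLIN2, at -1.27 and -0.73, is the lowest of the 10 in the upper panels, which share the control library, and APOE, at -1.40, in the bottom panel.

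The genes nearest to SREBF1 and APOE in their ratios to control were sought among the 9146 genes averaging 10 CPM or more, as Euclidean distance in the plane of both log2 ratios (each siRNA library to control). Nearest to SREBF1 were BX322557.10, at a distance of 0.0048, MAP1LC3B, an autophagosome protein, at 0.034, and RHBDD1, a rhomboid protease, at 0.036. Nearest to APOE were GPNMB, a melanosomal and lysosomal glycoprotein, at 0.278, SCG5, a secretory granule chaperone, at 0.337, and MLPH, a melanosome transport adaptor, at 0.352. GPNMB stood at 9.20 CPM with siRNA 1, 20.1 with siRNA 2 and 16.6 with control siRNA. The distances of APOE to its nearest genes were larger than those of SREBF1 to its own. Nearness is a description over 2 ratios per gene, which share the control library.

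The wider pathway was read from lists of related genes, chosen with earlier results of these data known. Of 22 compared genes of fatty acid synthesis and elongation outside the 10, 1 was at least 1.5-fold above control with each siRNA, ELOVL2, a very long chain fatty acid elongase, and 0 were that far below. ELOVL2 stood at 21.0 CPM with siRNA 1, 19.1 with siRNA 2 and 11.5 with control siRNA. ELOVL6, the elongase of palmitate, stood at 43.2, 46.7 and 36.2 CPM, and ME1, a cytosolic NADPH source, at 20.4, 30.04 and 29.3. MID1IP1, an activator of acetyl-CoA carboxylase, stood at 67.9, 68.6 and 86.3 CPM. The list medians were 0.06 and 0.02.

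Of 23 compared genes of SREBP and LXR control, 0 lay 1.5-fold from control with either siRNA, and the medians were -0.02 and -0.08. SREBF2, the paralogue of SREBF1 that acts mainly on cholesterol genes, named after its values were seen, stood at 120 CPM with siRNA 1, 115 with siRNA 2 and 122 with control siRNA. INSIG1, the sterol-sensing retention factor of SREBP, also named afterwards, stood at 52.5, 54.2 and 45.9 CPM. NFYA, a CCAAT-binding subunit that works with SREBP, stood at 23.1, 19.8 and 28.6 CPM. USF1 and USF2, E-box factors, lay on opposite sides of control, USF1 at 25.7, 23.4 and 19.5 CPM and USF2 at 10.52, 11 and 14.7. RNF145, a sterol-responsive ubiquitin ligase, stood at 41.0 CPM with siRNA 1, 39.2 with siRNA 2 and 32.04 with control siRNA.

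Of 19 compared genes of lipid droplets and lipolysis 0 lay 1.5-fold from control, with medians of -0.04 and -0.06. PNPLA2, the adipose triglyceride lipase, stood at 171 CPM with siRNA 1, 207 with siRNA 2 and 225 with control siRNA. BSCL2, the droplet assembly protein seipin, stood at 13.6, 14.5 and 18.4 CPM, and ABHD5, the coactivator of PNPLA2, at 19.8, 18.7 and 16.5. FITM2, a droplet-forming protein of the endoplasmic reticulum, stood at 13, 10.8 and 15.7 CPM. Of 18 glycerolipid synthesis genes, LPCAT2, a lysophosphatidylcholine acyltransferase, was 1.5-fold above control with siRNA 1, at 14.5, 12.9 and 8.68 CPM, and 0 lay that far below. With siRNA 2, 0 of the 18 lay 1.5-fold from control. LPIN2, a phosphatidate phosphatase, stood at 75.2 CPM with siRNA 1, 82.5 with siRNA 2 and 97.7 with control siRNA. Of the acyltransferases that make phosphatidic acid, AGPAT5 stood at 55.6, 61.1 and 45.3 CPM and AGPAT3 at 11.5, 8.24 and 12.8. AGPAT3 lay nearest to the 1.5-fold size with siRNA 2, at a log2 ratio of -0.58. The glycerolipid medians were 0.05 and 0.04.

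Of 20 compared genes of lipoproteins, receptors and lipid export, 2 were 1.5-fold below control with siRNA 1 (LRP1 and PLTP) and APOC1 was that far above with siRNA 2. PLTP, a phospholipid transfer protein, was named after its values were seen, at 4, 5.52 and 6.92 CPM. LRP1, a receptor that takes up APOE particles, stood at 9.24 CPM with siRNA 1, 16.1 with siRNA 2 and 17.04 with control siRNA. Its log2 ratio between siRNA 1 and siRNA 2 was -0.74, beside -1.40 for APOE. SORL1, another receptor of the family, stood at 24.3, 24.9 and 18.04 CPM, and NPC1, the lysosomal cholesterol exporter, at 26.7, 30.2 and 35.6. The list medians were 0.07 and -0.10. Of 24 genes of fatty acid uptake and oxidation 0 lay 1.5-fold from control, with medians of -0.07 and -0.04. FABP5, a fatty acid binding protein, stood at 96.2, 107 and 83.1 CPM, and CPT2, the mitochondrial carnitine palmitoyltransferase, at 21.2, 19.8 and 25.1. SLC27A5, a fatty acid transport protein and acyl-CoA synthetase, stood at 12.6 CPM with siRNA 1, 12.5 with siRNA 2 and 9.28 with control siRNA. ECI1, a mitochondrial enoyl-CoA isomerase, stood at 93.8, 92.04 and 115.7 CPM.

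**Figure D4:**
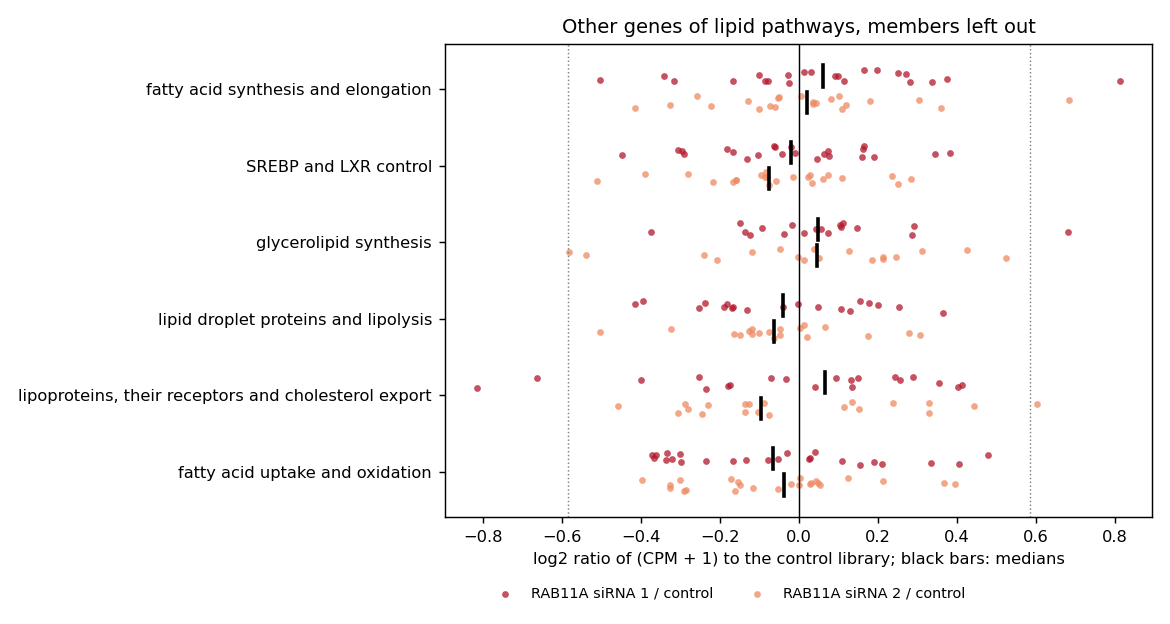
Log2 ratio of (CPM + 1) to the control library of each compared gene in 6 related lists, without the 10 described genes, for siRNA 1 and siRNA 2, with list medians as black bars and dotted lines at 1.5-fold. The list medians lie between -0.10 and 0.07, and ELOVL2 is the only gene past a dotted line with both siRNAs.

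Neighbours of the genes on the genome were also read. Of 28 compared neighbours, among them MIR611 and TMEM258 with identical values, 1 was 1.5-fold higher and 1 lower than control with siRNA 1. With siRNA 2, 2 were that far higher and 1 lower. RPS6, a ribosomal protein gene of the PLIN2 region and the higher one in both, stood at 1024 CPM with siRNA 1, 972 with siRNA 2 and 636 with control siRNA. APOC1 was the other higher one, and the lower ones were RAB3IL1, a guanine nucleotide exchange factor gene, with siRNA 1 and DUS1L with siRNA 2. HAUS6, a spindle complex gene 24.6 kb from PLIN2, stood at 19.6 CPM with siRNA 1, 20.9 with siRNA 2 and 18.7 with control siRNA. TOM1L2, an endosomal sorting gene 135 kb from SREBF1, stood at 27.9, 23.0 and 23.4 CPM, and DUS1L, a tRNA-modifying enzyme gene 32.4 kb from FASN, at 70.6, 41.4 and 74.96. NKIRAS2, an inhibitor of NF-kappa-B signalling encoded 96.9 kb from ACLY, stood at 24.1, 26.3 and 34.7 CPM. None of the 10 genes shared its 3 values with another gene. The first 30 bases from the canonical start of each occurred at 1 place in GRCh37.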

How the data were processed

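CAGE tags were measured in 3 EBC-1 libraries, with 1 per group. The authors deposited CPM per gene and strand. Per the submitters' processing notes the build was hg19 and the tools BWA and HISAT2, while their roles and versions were not stated, nor were the counting tool and the annotation (not given in the sources used here). Values were whole multiples of 0.04 CPM within 0.005 for 100% of genes, so whole tags were recovered. Tags summed over genes came to 25204585 with siRNA 1, 25137458 with siRNA 2 and 25174788 with control siRNA. These sums lay above the shared total of 24999950 tags, and the cause was not tested.

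Log2 ratios used a pseudocount of 1 CPM, which understates ratios of low genes, and a minimum mean of 5 CPM. The exact binomial test on tags called 5661, 5213 and 3968 of 10788 genes for siRNA 1 against control, siRNA 2 against control and siRNA 1 against siRNA 2. Scripts were tested on simulated data. The members and lists were chosen with earlier results of these data known. Genes named were the members, RAB11A, up to 4 genes per list averaging 10 CPM or more with the largest absolute mean of both ratios to control, listed neighbours, and the 3 genes nearest to SREBF1 and APOE. Others are said to be named after their values were seen.

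Positions are GRCh37 from the GENCODE annotation lifted to it, and the identifier of ACACA was matched by symbol. Promoters are RefSeq sequences, with 9 of 10 genes matched and FASN without one. Alternatives were a pseudocount of 0.5 or 5 CPM, a minimum mean of 1 or 20 CPM or none, TMM or median-ratio scaling, the binomial test, and limma with the siRNA libraries pooled as 1 group. Removing FEN1 tags from FADS2 was added after seeing the data. Python 3.11.15, numpy 2.4.6, pandas 2.3.3, scipy 1.17.1, matplotlib 3.10.9, R 4.3.3, limma 3.58.1 and edgeR 4.0.16 were used.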

Additional observations from a re-analysis of the deposited data

Results flagged for a closer look

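APOE lay on opposite sides of control in the siRNA libraries, at 26.2 CPM with siRNA 1 and 70.8 CPM with siRNA 2, against 55.1 CPM with control siRNA. The log2 ratio of siRNA 1 to siRNA 2 was -1.40 (counting standard error 0.064). With 1 library per group, the difference between the siRNAs was not tested beyond counting error.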

How the results depend on the processing

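No paired analysis was possible because each group has 1 library and the labels give no replicate numbers, and for the same reason no library could be left out. Of 210 values, the 30 ratios of the 10 genes under 7 alternatives, 208 stayed within their counting interval. The other 2 moved, the SCD ratio with siRNA 2 at 0.07 under both other scalings. The minimum-mean settings only choose which genes are compared, and all 10 genes average above 20 CPM. Those settings could therefore not move a ratio, and only the pseudocounts and scalings could. No ratio past 1.5-fold changed sign, while ratios near 0 have no settled sign. With FEN1 tags taken away, chosen after seeing the data, the FADS2 ratio moved to 0.69 with siRNA 1 and to 0.64 with siRNA 2. The latter passed 1.5-fold, under the untested assumption that all FEN1 tags were counted for FADS2. Calls on the 10 genes moved with the measure, and the cause was not tested. The binomial test called 6 with siRNA 1, where 4 were 1.5-fold, against 5661 of all 10788 genes. It called 8 with siRNA 2, where 1 was 1.5-fold, against 5213 of all genes. Between the siRNAs it called 9, where 1 was 1.5-fold, against 3968 of all genes. A single limma fit of both siRNA libraries together against the lone control library, assumed to vary like the siRNA libraries, is no result of either siRNA. It called 0 of the 10 genes and 15 of 10788 genes at an adjusted p of 0.05, and 3 of the 10 and 1512 of 10788 at an unadjusted p of 0.05. A pseudocount of 5 CPM left 1 of the 10 at 2-fold with siRNA 1 in place of 2. Over all genes, 1.5-fold counts with siRNA 1 were 352 at a pseudocount of 5 CPM and 339 at a minimum mean of 20 CPM, in place of 579, and 2-fold counts 50, 51 and, with no filter, 147 in place of 96. With siRNA 2 the 1.5-fold counts were 201, 179 and 520 in place of 334 under those 3 settings. The 2-fold counts with siRNA 2 were 79 at a minimum mean of 1 CPM, 21 at 20 CPM and 85 with no filter, in place of 50. Between the siRNAs the 1.5-fold counts were 89, 267, 74 and 299 at a pseudocount of 5 CPM, minimum means of 1 and 20 CPM and no filter, in place of 172, and 2-fold counts 11 at 20 CPM and 60 with no filter, in place of 38. Fewer or more genes were compared under the other minimum means. Limits are 1 library per group, a shared control and tags of unknown independence as molecules.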

Other observations

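FEN1, which overlaps FADS2 on the same strand, had log2 ratios to control of 0.52 with siRNA 1 and 0.33 with siRNA 2. MIR1908, inside FADS1 on the same strand, stood at 2.76 CPM with siRNA 1, 2.44 with siRNA 2 and 1.88 with control siRNA. Its mean of 2.36 CPM lies under the minimum mean. The log2 ratios to control were 0.38 (counting standard error 0.19) with siRNA 1 and 0.26 (0.19) with siRNA 2. Whether these tags were also counted for FADS1 is not stated in the sources.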
